A study of Mus musculus with 18 samples.

Results

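Notch signalling was examined through 10 genes in mouse skin during ultraviolet carcinogenesis. They were the receptors Notch1, Notch2 and Notch3, the ligands Jag1, Jag2, Dll1 and Dll4, the nuclear factor Rbpj and the target genes Hes1 and Hey1. They were chosen by symbol, and all 10 were found among the 14521 named genes of the expression table. The samples came from 6 littermate female SKH-1E Hairless mice, an outbred strain without a hair coat that develops skin tumours under ultraviolet light. Every animal had been irradiated chronically with a solar simulator, so that no unirradiated skin served as control. From each mouse (numbers 2, 3, 7, 8, 9 and 10) came irradiated skin without a lesion (CHR), a papilloma or benign epidermal outgrowth (PAP), and a carcinoma of squamous cells (SCC). This made 18 libraries of mRNA, 6 per group, and the groups were compared within mice.

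Notch receptors are single-pass membrane proteins that are activated by ligands of the Jagged and Delta-like families on a neighbouring cell. Ligand binding exposes the receptor to cleavage by ADAM proteases and then by gamma-secretase, and the freed intracellular domain enters the nucleus. There it binds RBPJ, recruits Mastermind co-activators and switches on genes of the HES and HEY families, while RBPJ without Notch can hold the same genes silent. In epidermis the pathway is known for promoting exit from the basal layer and keratinocyte differentiation, and Notch1 acts there as a tumour suppressor. In blood vessels Dll4, Notch4 and Hey1 are known endothelial genes, and Notch3 is known in the mural cells around vessels.

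The libraries held 15.4 to 21.0 M recovered reads each, with a median of 18.9 M. Levels are given as normalised read counts, that is, reads divided by a size factor per library. The composition of the tissue differed between the groups. Summed over 14 skeletal muscle genes, CHR libraries held 397546 to 598179 normalised reads, PAP libraries 312 to 29934 and SCC libraries 413 to 200161, and 4 of the 14 genes had 0 reads in at least 1 PAP library. Of 8 basal keratinocyte genes, 7 were higher in PAP than in CHR, whereas 7 of 9 dermal fibroblast genes, 9 of 10 myeloid genes, 8 of 9 T cell genes, 7 of 10 genes of sebaceous gland and follicle and 7 of 8 adipocyte genes were lower. Of 8 spinous keratinocyte genes, which mark the differentiating layers, Krt10 was lower in PAP (-1.75), and 4 were lower in SCC, among them Krt1 at -3.03. The basal keratinocyte sum was 131504 to 230734 in CHR, 416879 to 730534 in PAP and 157975 to 496322 in SCC, so that PAP lay above CHR while SCC overlapped with it through mouse 7. In such bulk tissue, fewer cells of a type and less RNA per cell cannot be told apart.

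**Figure D1:**
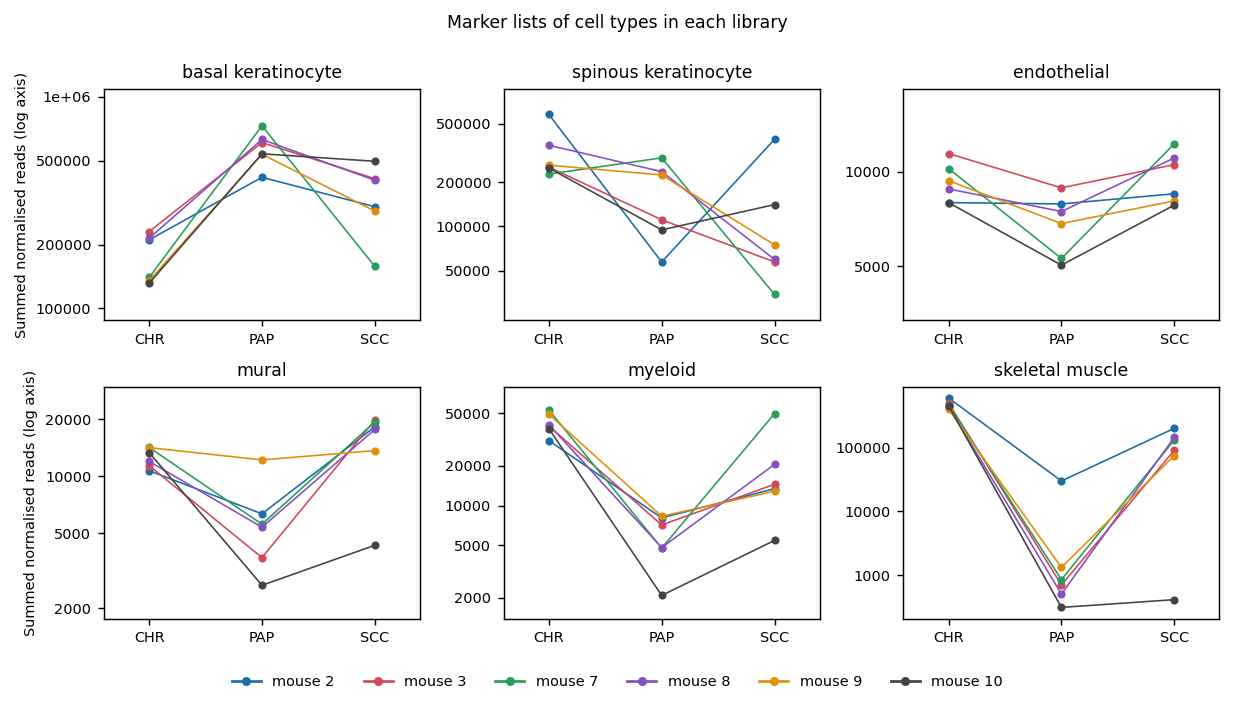
Summed normalised reads (log axis) of 6 marker lists in each of the 18 libraries, with a line for each mouse across CHR, PAP and SCC. Basal keratinocyte genes peaked in the papillomas of all 6 mice, muscle, myeloid and, except for a small step in mouse 9, mural genes dropped there, and the SCC of mouse 7 combined the lowest basal keratinocyte sum (157975) with the highest myeloid sum (49669) of its group.

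Of the Notch genes, the ligands shared a direction between CHR and PAP, while the receptors and the targets did not. All 4 ligands and the target Hes1 were higher in PAP, Notch2 and Rbpj were lower, and Notch1, Notch3 and Hey1 were not called. That is 7 of 10 genes at an adjusted p under 0.05 in limma with the mouse as a block, against 52.6% of all genes tested (23.3% higher and 29.3% lower), so that the share of called genes was not far from that of the table. The same 7 genes were called in the same directions between CHR and SCC, where 38.4% of all genes were called (15.8% higher and 22.7% lower). The CHR libraries serve in both comparisons, which are therefore not independent. Between PAP and SCC, 0 of 10 genes were called in limma and likewise 0 in limma-voom on the recovered reads, against 9.85% of all genes called (8.75% higher and 1.1% lower). At an unadjusted p under 0.05 there were 3 genes (Hes1, Hey1 and Rbpj), against 24.6% of all genes. Relative to CHR, 4 genes had PAP ranges that did not overlap with it (Jag1, Jag2, Dll1 and Rbpj, against 33.6% of all genes), and 5 had SCC ranges apart from it (Notch2 and the 4 ligands, against 19.7%). The direction was shared by all 6 mice in 6 of 10 genes in PAP against CHR (48.8% of all genes), 6 in SCC against CHR (38.5%) and 3 in SCC against PAP (11.3%). The median log2 fold change of the 10 genes was 0.51 in PAP and 0.40 in SCC relative to CHR, against 0.00 and -0.02 over all genes.

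These directions are relative to the typical gene of the table. When each library was instead scaled to the basal keratinocyte list, the median of all genes moved to -1.60 in PAP and -1.08 in SCC relative to CHR (log2), and all 5 genes called higher in PAP lay below CHR, from -0.26 for Jag1 to -0.82 for Hes1. Because the scaling moves all genes of a library alike, subtracting that shift returns the differences of the deposited scaling by construction (1.34 for Jag1 and 0.78 for Hes1). The split of calls in PAP was 5 higher and 2 lower as deposited, 6 and 2 after quantile normalization and 0 and 8 after keratinocyte scaling; in SCC it was 5 and 2, 6 and 2, and 0 and 6. Over all genes in PAP it was 3388 higher and 4251 lower as deposited, 5339 and 3211 after quantile normalization and 46 and 13929 after keratinocyte scaling, and in SCC 2291 and 3292, 3667 and 2680, and 81 and 12780. Thus the ligands rose with respect to the transcriptome as a whole, but not with respect to the basal keratinocyte genes.

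**Figure D2:**
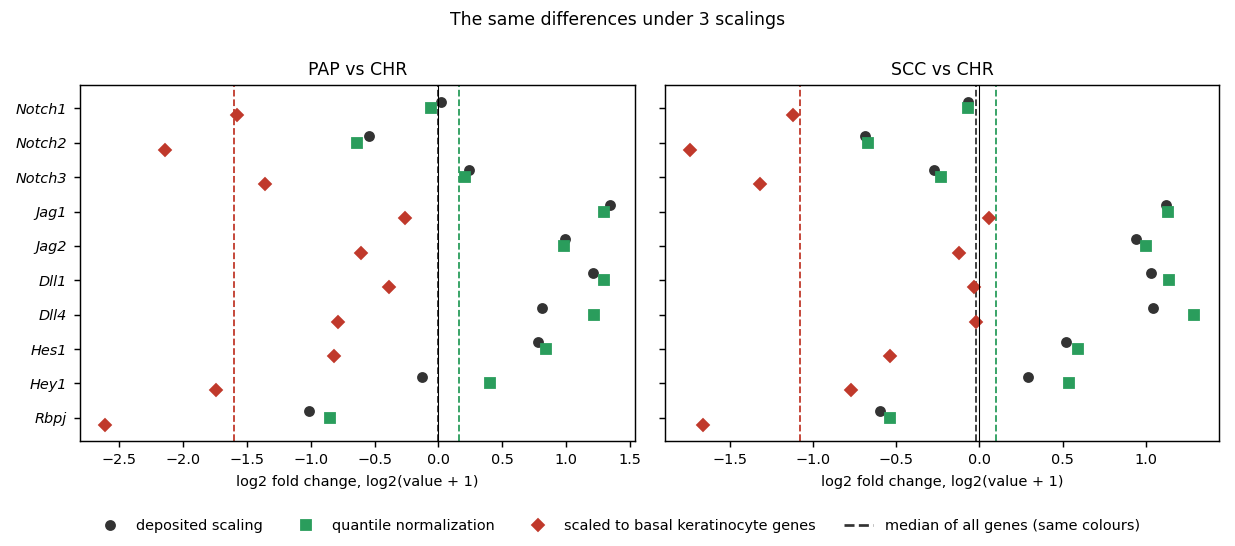
Log2 fold changes of the 10 genes (horizontal axis) in PAP and in SCC relative to CHR under the deposited scaling, quantile normalization and scaling to the basal keratinocyte list, with the median of all genes as a dashed line in the same colour. The distance of each gene from its dashed line is by construction the same under the deposited and the keratinocyte scaling, while the sign of the ligands and Hes1 in PAP differs.

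**Figure D3:**
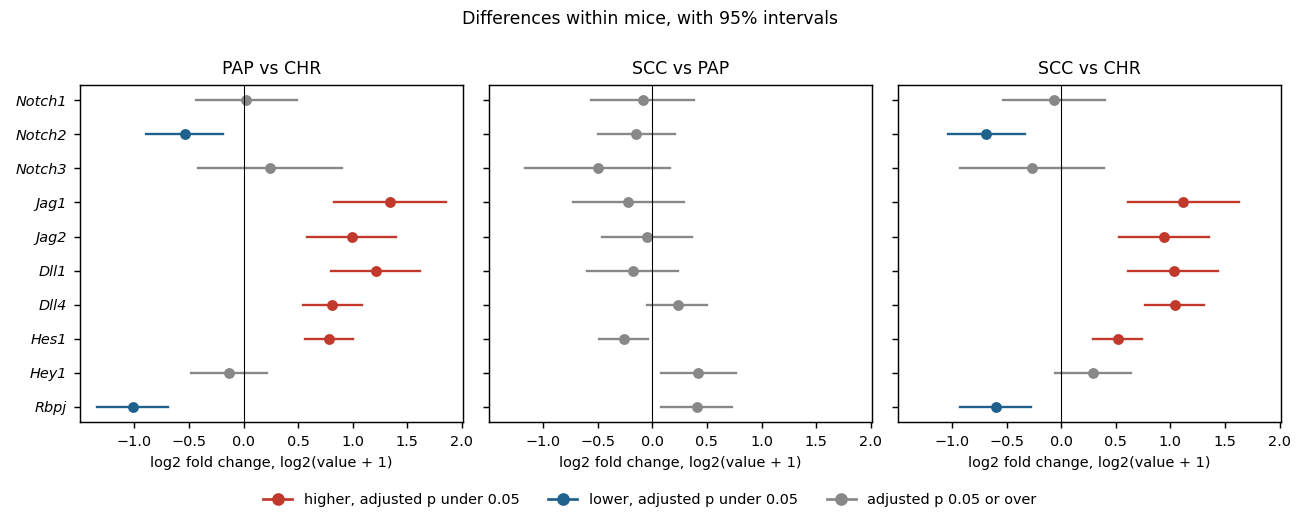
Log2 fold changes on the log2(value + 1) scale with 95% intervals for the 3 comparisons within mice, as deposited. The 4 ligands and Hes1 lie right of 0 in both lesions relative to CHR, Notch2 and Rbpj lie left of it, and none of the 10 genes was called between SCC and PAP; scaled to basal keratinocyte genes, the 5 genes on the right lie left of 0 in PAP.

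The Jagged ligands gave the highest ligand signal. Jag1 (chromosome 2, 137081456 to 137116644, minus strand; all gene positions are GRCm38) encodes a ligand known in epidermis and hair follicles. Its lowest, median and highest normalised read counts were 3349, 4201 and 4866 in CHR, 6993, 9604 and 19519 in PAP, and 6047, 8339 and 18264 in SCC. Neither lesion overlapped CHR, and the highest papilloma was that of mouse 2 and the highest carcinoma that of mouse 8. Jag1 rose by 1.34 ± 0.24 (log2, SE) in PAP (adjusted p = 0.000437) and by 1.12 ± 0.24 in SCC (adjusted p = 0.00282), higher in 6 of 6 mice each time, but stood at -0.26 and 0.06 under keratinocyte scaling.

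Jag2 (chromosome 12, 112907819 to 112929776, minus strand) encodes the second Jagged ligand. Its lowest, median and highest counts were 1056, 1473 and 1956 in CHR, 1977, 3087 and 3617 in PAP, and 2181, 2725 and 4563 in SCC. The groups did not overlap with CHR, although the lowest papilloma (mouse 2) lay just above the highest CHR library. The difference was 0.99 ± 0.19 in PAP (adjusted p = 0.000824) and 0.94 ± 0.19 in SCC (adjusted p = 0.00219), with -0.61 and -0.12 under keratinocyte scaling.

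The Delta-like ligands were less abundant and changed by a similar factor. Dll1 (chromosome 17, 15367354 to 15376872, minus strand), a ligand best known from embryonic development, had lowest, median and highest counts of 340, 481 and 745 in CHR, 839, 1249 and 1964 in PAP, and 811, 986 and 1824 in SCC. Its groups were also apart from CHR, with differences of 1.21 ± 0.19 in PAP (adjusted p = 0.000182) and 1.03 ± 0.19 in SCC (adjusted p = 0.00126), each in 6 of 6 mice; under keratinocyte scaling they were -0.39 and -0.03.

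Dll4 (chromosome 2, 119325784 to 119335962, plus strand), a ligand of sprouting endothelium, had counts of 56.3, 93.8 and 144 in CHR, 142, 202 and 291 in PAP, and 185, 274 and 321 in SCC. The lowest papilloma (mouse 10) and the highest CHR library (mouse 3) just overlapped, while SCC was apart from CHR. Dll4 was higher by 0.81 ± 0.13 in PAP (adjusted p = 0.000155) and by 1.04 ± 0.13 in SCC (adjusted p = 7.42e-05), again in 6 of 6 mice, with -0.79 and -0.02 under keratinocyte scaling. Because the deposited scale compresses low values, the 0.81 and 1.04 are smaller than the 1.18 and 1.45 found by limma-voom on the recovered reads. The same compression affects the values under keratinocyte scaling. Beside Dll4, the summed level of 12 endothelial genes was 7967 to 11425 in CHR, 5038 to 8883 in PAP and 7827 to 12267 in SCC, with 0 of the 12 at 0 reads in any library. In PAP, 2 of these 12 endothelial genes were higher and 6 lower, among them Pecam1 at -0.96 and Tek, the angiopoietin receptor, at -1.88. Emcn went the other way, with counts of 167 to 240 in CHR and 291 to 548 in PAP. In SCC against CHR, 3 of the 12 were higher and 1 lower (all genes 15.8% and 22.7%).

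**Figure D4:**
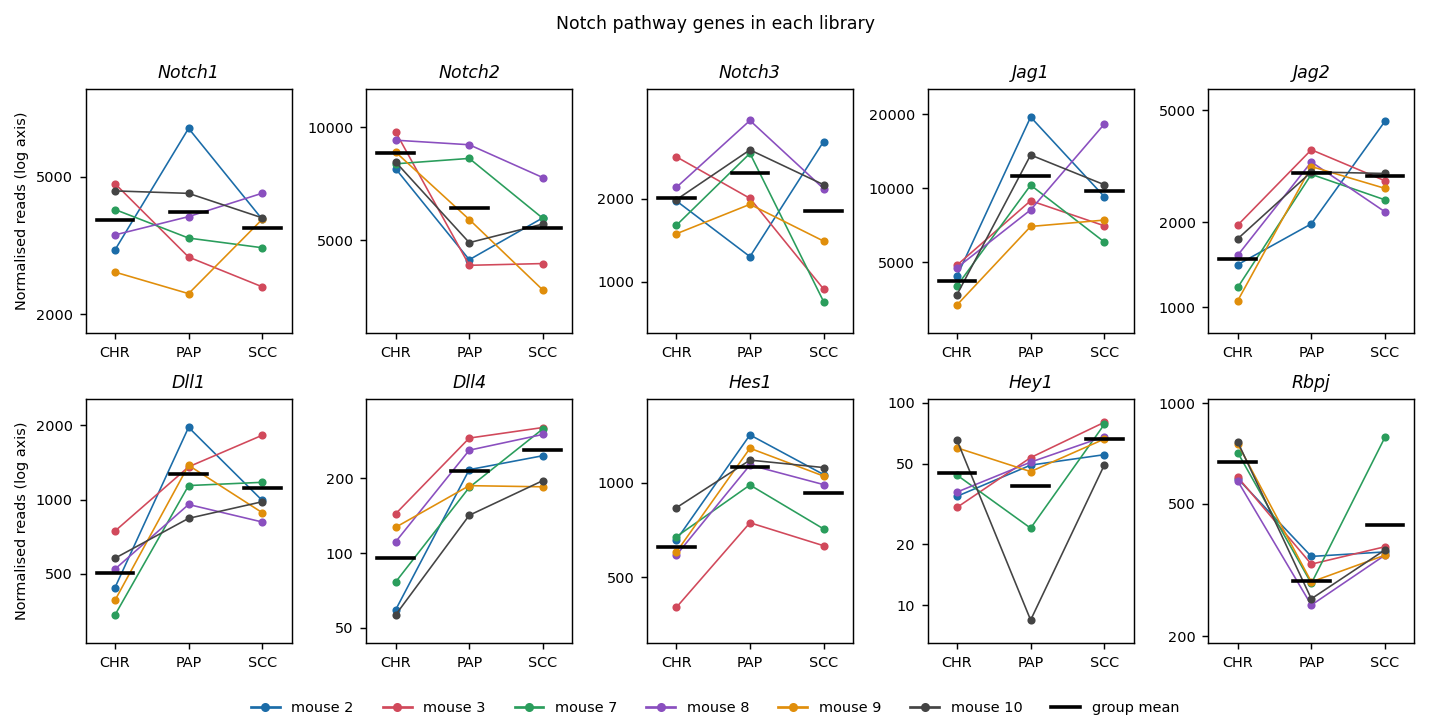
Normalised reads (log axis, separate range per gene) of the 10 genes in each library, with a line for each mouse across CHR, PAP and SCC and a bar at the group mean. Jag1, Jag2, Dll1, Dll4 and Hes1 climb from CHR to PAP in every mouse and Rbpj drops in every mouse, both relative to the typical gene (under keratinocyte scaling the first 5 lie below CHR in the fit), whereas the lines of Notch1, Notch3 and Hey1 cross.

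No such common movement was seen among the receptors. Notch1 (chromosome 2, 26457903 to 26516663, minus strand) had lowest, median and highest counts of 2649, 3710 and 4783 in CHR, 2294, 3581 and 6919 in PAP, and 2401, 3769 and 4486 in SCC. The 3 groups overlapped over most of their range, and the papilloma of mouse 2 stood highest. The difference was 0.02 ± 0.22 in PAP (95% interval -0.44 to 0.49, adjusted p = 0.938) and -0.07 ± 0.22 in SCC (-0.53 to 0.40, adjusted p = 0.83). Changes within these bounds in either direction remain compatible with the data. The sign in PAP turned to -0.20 without mouse 2 and to -1.58 under keratinocyte scaling.

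Notch2 (chromosome 3, 98013527 to 98150361, plus strand), the most abundant receptor, went down. Its counts were 7747, 8323 and 9703 in CHR, 4288, 5301 and 8971 in PAP, and 3685, 5618 and 7336 in SCC. Every carcinoma lay below every CHR library, whereas the papillomas of mice 7 and 8 stayed at their CHR level (0.05 and -0.04 within those mice). Notch2 fell by 0.69 ± 0.16 in SCC (log2; adjusted p = 0.00563, 6 of 6 mice). The difference in PAP was -0.54 ± 0.16 (adjusted p = 0.014, 5 of 6 mice). Without mouse 3 the latter was -0.42 and no longer called (adjusted p = 0.0651; range over all alternatives 1.38e-07 to 0.0651).

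Notch3 (chromosome 17, 32120820 to 32166852, minus strand) had counts of 1490, 1972 and 2836 in CHR, 1231, 2462 and 3842 in PAP, and 846, 1788 and 3221 in SCC. The groups overlapped, with the carcinoma of mouse 2 at the top of SCC and that of mouse 7 at the bottom. Its difference was 0.24 ± 0.31 in PAP (-0.42 to 0.90, adjusted p = 0.54) and -0.27 ± 0.31 in SCC (-0.93 to 0.39, adjusted p = 0.516), the first with -1.36 under keratinocyte scaling. SCC against PAP gave -0.50 ± 0.31 (adjusted p = 0.343), and -0.87 without mouse 2 (adjusted p = 0.0497; range over all alternatives 0.0497 to 0.896). Of 10 mural genes, 7 were lower in PAP than in CHR and 9 higher in SCC than in PAP (summed level 10667 to 14159 in CHR, 2647 to 12165 in PAP and 4307 to 19740 in SCC).

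Levels of different genes were compared per kilobase of the longest protein-coding transcript. Over the 4 ligands they summed to 1200 ± 194 normalised reads per kb in CHR (mean ± SD), 3007 ± 797 in PAP and 2687 ± 728 in SCC. Over the 3 receptors the sums were 1460 ± 184, 1308 ± 290 and 1113 ± 259. The ligand to receptor ratio, which does not depend on the scaling factor of a library, was 0.738 to 0.918 in CHR, 1.4 to 3.43 in PAP and 2 to 3.06 in SCC. Ligands thus lay below receptors in 6 of 6 CHR libraries and above them in 6 of 6 papillomas and 6 of 6 carcinomas. Within the ligand sum the mean makeup was steady, Jag1 holding 62.3 ± 4.44% in CHR, 64.9 ± 9.37% in PAP and 62.5 ± 10.7% in SCC. Single lesions varied more than CHR samples, the Jag1 share running from 55.9 to 67.4% in CHR, 54.2 to 77.8% in PAP and 52.3 to 81.6% in SCC. Within the receptor sum Notch2 held 56.1 ± 4.56%, 44.1 ± 8.78% and 46.5 ± 6.94%.

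The order of the genes by median level per kb changed accordingly. In CHR it was Notch2 (793), Jag1 (749), Hes1 (428), Notch1 (391), Jag2 (289), Notch3 (246), Dll1 (134), Rbpj (119), Dll4 (25) and Hey1 (16.5 normalised reads per kb). Only Jag1 over Hes1 and Rbpj over Dll4 were neighbours without overlap of their ranges in CHR. In PAP, Jag1 led with 1711 per kb before Hes1 (792), without overlap, and Rbpj (52.8) had dropped to the level of Dll4 (53.9). In SCC, Jag1 (1486) and Hes1 (695) again led without overlap, and Dll4 (73) and Rbpj (65.8) again could not be separated, each being above the other in 3 of 6 libraries.

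The 2 target genes differed from each other. Hes1 (chromosome 16, 30064384 to 30067796, plus strand), a transcriptional repressor and a direct Notch target, had lowest, median and highest counts of 400, 629 and 833 in CHR, 746, 1162 and 1424 in PAP, and 630, 1020 and 1120 in SCC. The ranges overlapped and mouse 3 was lowest in all 3 groups, but within mice every lesion exceeded its own CHR sample, by 0.08 (log2) in the carcinoma of mouse 7. The increase was 0.78 ± 0.10 in PAP (adjusted p = 4.35e-05) and 0.52 ± 0.10 in SCC (adjusted p = 0.00197), against -0.82 and -0.54 under keratinocyte scaling. Between PAP and SCC the value was -0.26 ± 0.10 and lower in SCC in 6 of 6 mice, but it did not pass (adjusted p = 0.129).

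Hey1 (chromosome 3, 8663359 to 8667256, minus strand), a repressor of the same class, was the least abundant of the 10 per kb, with counts of 30.4, 40.1 and 65.3 in CHR, 8.43, 47.4 and 53.6 in PAP, and 49.2, 67.2 and 80.1 in SCC. The papillomas of mouse 10 (8.43) and mouse 7 (24) were the lowest of their group, and the other 4 lay between 45.7 and 53.6. The difference was -0.13 ± 0.16 in PAP (-0.48 to 0.21, adjusted p = 0.506) and 0.29 ± 0.16 in SCC (-0.06 to 0.64, adjusted p = 0.172). SCC exceeded PAP in 6 of 6 mice by 0.42 ± 0.16, which did not pass (adjusted p = 0.119). Hey1 depended on the processing, since quantile normalization gave 0.40 in PAP (adjusted p = 0.0208; range over all alternatives 9.66e-06 to 0.997) and 0.54 in SCC (adjusted p = 0.00588; range 0.00588 to 0.382), keratinocyte scaling -1.74 and -0.77, and leaving out mouse 10 gave 0.05 and 0.39 (adjusted p = 0.761 and 0.0402).

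Rbpj (chromosome 5, 53466152 to 53657362, plus strand) encodes the DNA-binding protein through which all Notch receptors act. It had counts of 584, 655 and 765 in CHR, 248, 289 and 347 in PAP, and 350, 361 and 790 in SCC. Every papilloma lay below every CHR library, and 5 of 6 carcinomas lay close together above the papillomas, while the carcinoma of mouse 7, at 790, exceeded all CHR libraries. Rbpj fell by 1.01 ± 0.15 in PAP (log2 of the deposited value; adjusted p = 0.00011, 6 of 6 mice), and its mean normalised reads in PAP were 0.44 of those in CHR. The difference in SCC was -0.60 ± 0.15 (adjusted p = 0.00724, 5 of 6 mice) with mouse 7 and -0.75 without it (adjusted p = 0.000957; range over all alternatives 6.06e-05 to 0.0371). SCC against PAP gave 0.41 ± 0.15 (adjusted p = 0.108, higher in 6 of 6 mice) and 0.24 without mouse 7 (adjusted p = 0.34), and Rbpj was the 1 gene of the 10 whose PAP and SCC ranges did not overlap, as for 0.413% of all genes. The same SCC library of mouse 7 had the highest sum of 10 myeloid genes (49669, group median 13945) and the lowest of 8 basal keratinocyte genes (157975, group median 353052); their part in the Rbpj level was not tested. Processed pseudogenes of Rbpj exist, and reads could have been divided between them and the gene.

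The letters TGGGAA, the core of the sequence bound by RBPJ, were searched on both strands in 300 bases around RefSeq transcription starts (250 before and 50 after; GRCm38.p6). Among the 8 genes with such a sequence, only Rbpj itself held the motif, against 25.6% of 32851 promoters. Its first promoter had 2 copies, as did 3.79% of promoters with at least 2. The following 30-base stretches of the plus strand show these copies in capitals, the first as TGGGAA and the second as its reverse complement:

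Rbpj, motif 149 bases before the start, chr5:53590184-53590213: gaatgaaaaaggcTGGGAAcccgcggcgag
Rbpj, motif 65 bases before the start, chr5:53590268-53590297: agacgctcgcattTTCCCAggacccctcct

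The first stretch lies in no annotated exon of Rbpj and within introns of its longer transcripts, and the second in the 5′ UTR of the transcript Rbpj-201. They are shown because Rbpj was the most reduced of the 10 genes in PAP; a match of 6 letters is no evidence of binding, and the absence of a match in Notch1, Notch2, Notch3, Jag1, Jag2, Dll1 and Dll4 says only that these letters are not in those windows. Hes1 and Hey1 were not among the promoters searched.

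The remaining genes of the pathway were taken from 6 lists by role, with 60 of 70 genes among those analysed. In PAP, 14 were higher and 18 lower than in CHR and in SCC 9 were higher and 10 lower, with median log2 fold changes of -0.07 and -0.09. These shares are near those of all genes (23.3% higher and 29.3% lower in PAP, 15.8% and 22.7% in SCC). Of 7 other receptors and ligands, Notch4, the endothelial receptor, was higher by 0.71 ± 0.14 in PAP (adjusted p = 0.000922) and 0.84 ± 0.14 in SCC (adjusted p = 0.000569). Its counts ran from 98.8 to 254 in CHR, 181 to 373 in PAP and at most 383 in SCC, with overlap in PAP and slight overlap in SCC. Cntn1, a membrane-anchored contactin, was higher by 2.53 ± 0.49 in PAP (adjusted p = 0.000845). Mfap5, a microfibril protein, and Nov (also called Ccn3), a matricellular protein, were lower, with log2 fold changes of -3.41 and -2.89. Both are known from connective tissue, and 7 of 9 dermal fibroblast genes were lower in PAP as well (summed level 139482 to 308509 in CHR and 5504 to 162573 in PAP). The part of fibroblasts in the fall of Mfap5 and Nov was not tested. Thbs2, thrombospondin 2, was higher in SCC by 1.38 ± 0.33.

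Among 10 genes of ligand endocytosis and receptor glycosylation, 2 were higher and 4 lower in each lesion, where 52.6% of all genes were called in PAP and 38.4% in SCC. The Fringe glycosyltransferases, which alter the response of Notch to Jagged and Delta-like ligands, did not share a direction. Lfng fell by 1.20 ± 0.15 in PAP (log2; adjusted p = 2.34e-05), with counts of 538 to 773 in CHR and 133 to 345 in PAP. Likewise Mfng fell by 0.97 ± 0.11 (adjusted p = 1.44e-05) and Rfng rose by 1.35 ± 0.23 (adjusted p = 0.000381). Mean counts in CHR and PAP were 174 and 59.5 for Mfng, and 229 and 709 for Rfng. The compressed scale understates both changes. Eogt, which adds N-acetylglucosamine to Notch, was higher by 1.03 ± 0.11 in PAP and 0.77 ± 0.11 in SCC. The ubiquitin ligase Neurl1b was lower in SCC (-0.91 ± 0.27).

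Of 9 genes of receptor cleavage, 2 were higher and 3 lower in PAP, again near the 52.6% of all genes. Psen2, a catalytic subunit of gamma-secretase, fell by 2.10 ± 0.19 in PAP (log2; adjusted p = 2.59e-06) and by 1.35 ± 0.19 in SCC. Its counts were 412 to 804 in CHR, 65.3 to 114 in PAP and 95.1 to 330 in SCC, so that neither lesion overlapped CHR. Aph1c, another subunit, fell by 1.98 and 1.56, whereas the protease Adam10 was higher by 0.88 ± 0.16 in PAP (adjusted p = 0.000545) and 0.56 ± 0.16 in SCC (adjusted p = 0.0152). Mean counts of Aph1c were 344 in CHR, 39.5 in PAP and 78.3 in SCC, so that its fold changes are understated by the compressed scale. Skeletal muscle genes fell with Psen2 and Aph1c in both lesions, 14 of 14 being lower in each; their part in these differences was not tested.

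In the nucleus, 6 of 20 co-activators and co-repressors were higher and 3 lower in PAP (all genes 23.3% and 29.3%). The acetyltransferases Kat2a (0.87 ± 0.14) and Kat2b (-1.09 ± 0.14) moved in opposite directions in PAP, and likewise in SCC (0.61 and -0.96). Tle2, a Groucho co-repressor, was lower in PAP (-0.93 ± 0.20) and the co-repressor Ctbp2 higher in SCC (0.70 ± 0.14). Among 11 genes of receptor turnover and feedback, Dtx4, a Deltex ubiquitin ligase, fell by 2.82 ± 0.31 in PAP (log2; adjusted p = 1.07e-05) and 1.34 ± 0.31 in SCC. Its counts were 918 to 1312 in CHR, 35.4 to 218 in PAP and 89.4 to 825 in SCC. Dtx1 and Numbl, an adaptor that restrains Notch, were also lower in PAP (-0.76 and -0.83). Their mean counts in CHR and PAP were 26.7 and 3.27 for Dtx1, and 408 and 201 for Numbl. The compressed scale thus understates the fall of Dtx1 far more than that of Numbl. Of the other 3 HES and HEY genes, Hes6 (-0.47 ± 0.12) and Hey2 (-0.37 ± 0.10) were lower in PAP and 0 were called in SCC against CHR in limma (0 at an unadjusted p under 0.05). Mean counts in CHR and PAP were 229 and 148 for Hes6, and 28.5 and 13.4 for Hey2, whose fold change is compressed likewise.

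**Figure D5:**
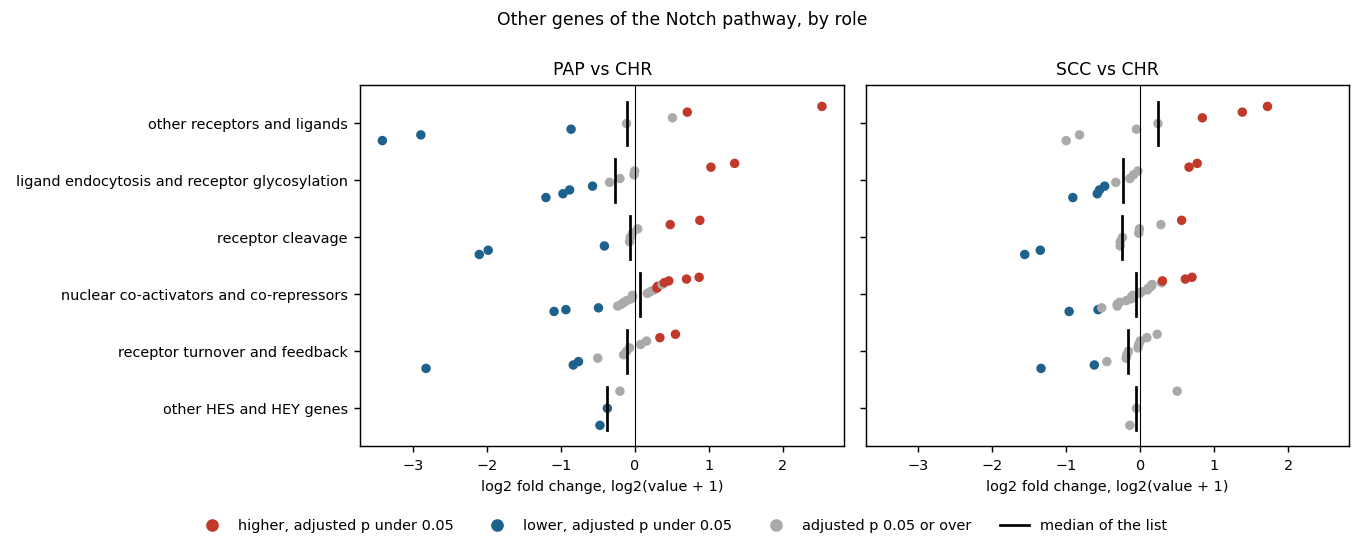
Log2 fold changes (horizontal axis, log2(value + 1) scale as deposited) of 60 other Notch pathway genes in PAP and in SCC relative to CHR, grouped by role, with a bar at the median of each list. Called genes lie on both sides of 0 in 5 of 6 lists in PAP, and all medians there lie between -0.37 and 0.07; keratinocyte scaling shifts the median of all genes to -1.60 in PAP.

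SCC against PAP gave 8 other pathway genes as higher and 0 as lower, against 9.85% of all genes. They were Mfap5, Nov, Thbs2, Lfng, Mfng, Psen2, Dtx4 and Hes6. Apart from Thbs2, each had been lower in PAP than in CHR, for example Lfng, which was 0.62 ± 0.15 higher in SCC than in PAP (adjusted p = 0.0217), and Psen2 at 0.75 ± 0.19 (adjusted p = 0.027). Mural, myeloid and muscle genes were higher in SCC than in PAP as well (9 of 10, 8 of 10 and 13 of 14); the part of these cells was not tested. These 8 calls were not stable, with 0 left without mouse 7 or without mouse 8, 2 without mouse 3, 3 without the mouse as a block and 4 in limma-voom.

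A mixed model of progression was also fitted, with the mouse as a random term. Genes that differed in SCC against CHR were classed as early when PAP against CHR differed with the same sign. They were classed as late when SCC against PAP differed with that sign. Genes that met both rules were stepwise and counted in neither class. The early class held 7 of the 10 genes (Notch2, Jag1, Jag2, Dll1, Dll4, Hes1 and Rbpj), against 41.1% of all genes, and the other 3 fell into no class. None of the 10 was late, against 2.2% of all genes.

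For the 3 genes with the largest difference in SCC, the genes closest in pattern were sought by the root mean square (RMS) of the difference over the 12 within-mouse log2 changes. Closest to Jag1 were Jarid2 (RMS 0.32), Efnb1 (0.39), Homer3 (0.39), Cenpi (0.41) and D8Ertd82e (0.41), far below the median of all genes for Jag1 (1.40). Dll4 was most like Notch4 (RMS 0.29), followed by Stc1 (0.32), Elk3 (0.32), Pdlim7 (0.34) and Ptk7 (0.35), with a median of 1.07. Closest to Dll1 were Chtf18 (RMS 0.37), D17H6S56E-5 (0.37), Chaf1a (0.39), Plk4 (0.40) and Chek1 (0.41), with a median of 1.29. These are descriptions, since the 12 changes share their CHR samples within each mouse.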

How the data were processed

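Libraries of mRNA from 18 samples (6 mice, 3 tissues each) had been sequenced as paired-end reads. The authors mapped the mouse reads to mm10 (GRCm38) and took counts per gene from HTSeq, which were normalised by scaling factors and then transformed with DESeq2 to stabilise the variance. Their methods also describe scaling batch medians per gene. Whether this was done for the present table is not given, and which samples formed a batch is not given either. Tool versions, gene annotation and strandedness are not given in the sources used here. The deposited values are whole-number scores on the linear scale of that transformation, in which 0 reads appear as 39, so that low levels are compressed. The smallest row maximum was 57, so that a filter on low genes, not stated, preceded deposition.

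The transformation was inverted (0 reads at 39.135) and the steps between low values gave a size factor for each library (0.835 to 1.18). Exact whole reads were obtained for 100% of values under 100 and for 98% of all values, with 1 size factor per library for all genes. No further factor per gene or batch was needed for values under 100. At higher values a step of a single read is about as fine as the whole-number scores. The 98% therefore cannot test for such a factor. Of 14542 entries, 21 with a number for a symbol (at most 0.236% of a library's total) were left out. No pair of libraries shared more than 2.23% of their values, so none was counted as a duplicate, and 0 columns were left unmapped. Because the values are transformed and not raw counts, limma (3.58.1, R 4.3.3) was run on log2(value + 1) with group and mouse as terms, all 18 libraries together, two-sided, with Benjamini-Hochberg adjustment over 14521 genes at 0.05. The progression model was fitted on the same genes with unadjusted p-values at 0.05. The fits were tested on simulated data.

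Same-numbered samples come from the same animal, which pairs them. The deviations of such samples from their group means correlated at -0.245 to 0.507. The samples of a mouse are separate tissues, and the 6 mice are the replicates. Groups apart means that the ranges of normalised reads did not overlap. Per-kb levels use the longest basic protein-coding transcript of GENCODE M21, to which 99.6% of the genes matched; promoters are from RefSeq. Nov and Emr1 were matched through older symbols. Noncoding genes overlap exons of Notch1, Notch2, Notch3, Dll1 and Dll4, mostly on the other strand, and without strand their reads cannot be told apart.

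The 10 genes and the pathway and marker lists were chosen with earlier results of these data known. Of each pathway list, up to 3 called genes with the largest fold change per comparison against CHR were named; the 8 genes called in SCC against PAP, among them Mfng, were named after their values were seen. Alternatives were other pseudocounts (50, or 1 on normalised reads), limma-voom, quantile normalization, scaling to basal keratinocyte genes, a filter of 10 reads in 6 libraries (14320 genes), library weights, the 2 groups alone, other treatments of the mouse and leaving out each mouse.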

Additional observations from a re-analysis of the deposited data

Results flagged for a closer look

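In 4 of the 30 combinations of gene and group, a library stood apart from the other 5 by Dixon's criterion for 6 samples (on the gap to the nearest library over the range), and all 4 were high SCC libraries from different mice. That criterion marks about 1 in 20 groups by chance when values are normally distributed. It was applied here to read counts without a log, where high values stand apart more readily. The 4 combinations are therefore not set against that share. Rbpj in the carcinoma of mouse 7 was 790 normalised reads, with the next library at 371 (gap over range 0.953). Jag1 in the carcinoma of mouse 8 was 18264, with the next at 10345 (0.648). Jag2 in the carcinoma of mouse 2 was 4563, with the next at 2981 (0.664). Dll1 in the carcinoma of mouse 3 was 1824, with the next at 1175 (0.641). Without the mouse concerned, SCC against CHR was -0.75 for Rbpj (adjusted p = 0.000957), 0.95 for Jag1 (adjusted p = 0.00487), 0.80 for Jag2 (adjusted p = 0.00138) and 0.99 for Dll1 (adjusted p = 0.00584), all still called; over all alternatives the adjusted p ran from 6.06e-05 to 0.0371 for Rbpj, 0.00114 to 0.845 for Jag1, 0.000511 to 0.643 for Jag2 and 0.000329 to 0.924 for Dll1, the upper ends of the ligands being those of keratinocyte scaling.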

How the results depend on the processing

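Over 10 genes, 3 comparisons and 16 alternatives, 436 of the values kept direction and call, 31 turned direction (with or without a change of call), and of those that kept it 11 gained and 2 lost their call. The number of called genes was 7 in PAP against CHR (6 to 7 when leaving out a mouse) and 7 in SCC against CHR (7 to 8). In SCC against PAP it was 0 (0 to 1), 3 under keratinocyte scaling (Dll4, Hey1 and Rbpj) and 1 with library weights (Rbpj at 0.48, adjusted p = 0.0353).

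Without the mouse as a replicate block, 7, 0 and 7 of the 10 genes were called in PAP against CHR, SCC against PAP and SCC against CHR, and no call of the 10 genes changed. In SCC against PAP this fit gave 3 other pathway genes in place of 8, and 810 of all genes in place of 1430; limma-voom gave 4 other pathway genes, and leaving out a mouse 0 to 12. Over all genes, SCC against PAP gave 4343 calls under keratinocyte scaling, 2949 with library weights, 0 from the 2 groups alone in limma (2830 at an unadjusted p under 0.05) and 0 to 1995 when leaving out a mouse (0 without mouse 7 or 8, 471 without mouse 3). Keratinocyte scaling gave 13975 calls in PAP and 12861 in SCC against CHR, since it moved the median gene.

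Values that turned direction under keratinocyte scaling were, in PAP against CHR, Notch1 (-1.58), Notch3 (-1.36), Jag1 (-0.26), Jag2 (-0.61), Dll1 (-0.39), Dll4 (-0.79) and Hes1 (-0.82); in SCC against PAP, Notch1 (0.45), Notch2 (0.40), Notch3 (0.04), Jag1 (0.32), Jag2 (0.49), Dll1 (0.36) and Hes1 (0.28); and in SCC against CHR, Jag2 (-0.12), Dll1 (-0.03), Dll4 (-0.02), Hes1 (-0.54) and Hey1 (-0.77). The values of Dll1 and Dll4 in SCC against CHR lay too near 0 on this compressed scale to settle their sign. Quantile normalization turned Notch1 (-0.06) and Hey1 (0.40) in PAP against CHR and Jag2 (0.02) in SCC against PAP. Library weights turned Notch1 (-0.04) in PAP against CHR and Jag1 (0.17) in SCC against PAP. Leaving out a mouse turned the direction in 5 combinations of gene and comparison, none of them called in either fit. Notch1 in PAP against CHR turned without mouse 2 and without mouse 8, and Jag2 in SCC against PAP without mouse 3 and without mouse 8. The ranges were -0.20 to 0.17 for Notch1 and -0.23 to 0.05 for Hey1 in PAP against CHR, -0.25 to 0.06 for Notch1 and -0.30 to 0.05 for Jag2 in SCC against PAP, and -0.18 to 0.11 for Notch1 in SCC against CHR. Beyond the scaling itself, the cause was not tested.

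Depth and the compressed scale limit Hey1 and Dll4 most, whose levels are the lowest. The 95% intervals of Notch1 and Notch3 span 0 widely, so that with 6 mice differences within them remain compatible with the data.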
